A study of Mus musculus with 28 samples.

Results

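The genes of the oxygen-sensing pathway that controls hypoxia-inducible factor (HIF) were followed in O9-1 cells, which are mouse cells of a line made from cranial neural crest. In the embryo cranial neural crest cells build most of the bone and cartilage of the face. The genes were taken by symbol from the deposited count table and number 10 of its 54429 genes. Hif1a, Epas1 and Hif3a encode the alpha subunits, Arnt and Arnt2 the beta subunits, Egln1, Egln2 and Egln3 the HIF prolyl hydroxylases, Hif1an the asparaginyl hydroxylase, and Vhl the von Hippel-Lindau protein. RNA was measured by sequencing of polyadenylated RNA in 28 libraries of 8 groups, with 4 libraries in each group kept at 21% O2 (normoxic) and 3 in each group kept at 0.5% O2 (hypoxic), all of this single cell line and with no genetic change named. Each rise or fall at low oxygen is a difference between separate cultures at 0.5% and 21% O2, not a change followed in 1 culture. At each oxygen level cells were proliferating or were grown in chondrocyte, osteoblast or smooth muscle conditions. Proliferating cultures were kept in medium conditioned by STO cells with 15% fetal calf serum, 25 ng/ml bFGF, 5 ng/ml LIF, 55 µM beta-mercaptoethanol and 0.1 mM non-essential amino acids. Osteoblast cultures spent 10 days in medium with 10% serum, 100 ng/ml BMP-2, 0.1 µM dexamethasone and 10 mM beta-glycerophosphate. Chondrocyte cultures spent 3 days in osteoblast medium and then 7 days as micromasses on matrigel with 5% serum, 50 ng/ml BMP-2, 10 ng/ml TGF-beta3, 0.1 µM dexamethasone and an insulin, transferrin and selenium supplement. Smooth muscle cultures spent 3 days in DMEM with 10% serum, with no growth factor named. All media held penicillin and streptomycin, and how long the proliferating cultures were at 0.5% O2 is not given in the sources used here.

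HIF is a pair of proteins, an alpha subunit that is made all the time and a beta subunit of the ARNT family. In oxygenated cells the prolyl hydroxylases use oxygen to mark the alpha subunit, VHL binds the marked protein as part of a ubiquitin ligase, and the alpha subunit is destroyed, while Hif1an, also called FIH, blocks the binding of coactivators. When oxygen falls the alpha protein escapes, pairs with ARNT and turns on genes for glucose uptake, glycolysis and vessel growth, among them Egln1 and Egln3, and HIF-1alpha is known to be needed for chondrocyte survival in developing cartilage. Only RNA was measured here, so the amount and hydroxylation of the proteins are not described by these data.

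Library totals ran from 19869271 to 64693346 counts. The hypoxic smooth muscle libraries stood apart, with 11.6% to 13.3% of counts on the mitochondrial ribosomal RNA genes against at most 0.0889% in the other 25 libraries, and with scaling factors of 0.518 to 0.545 against 0.896 to 1.26. Markers did not always follow the labels. The summed level of 4 smooth muscle markers was 27.8 to 40.9 CPM in the hypoxic smooth muscle libraries and 3432 to 3844 CPM in the normoxic ones, and 3 of 5 osteoblast markers were at 0 in the hypoxic ones. The same sum was 3103 to 4749 CPM in normoxic and 1723 to 2031 CPM in hypoxic osteoblast cultures, 1698 to 2290 CPM over both chondrocyte groups and 36.6 to 51.1 CPM over both proliferating groups. The summed level of 5 chondrocyte markers was 2817 to 8323 CPM in normoxic and 847 to 1267 CPM in hypoxic chondrocyte cultures, where 1 of the 5 was at 0. In normoxic osteoblast cultures the bone marker Ibsp was at 0.389 to 3.25 CPM, against 64.1 to 76.1 CPM in hypoxic osteoblast and 734 to 1901 CPM in normoxic chondrocyte cultures. The summed level of 5 osteoblast markers was 63.5 to 148 CPM in normoxic and 368 to 398 CPM in hypoxic osteoblast cultures. The normoxic osteoblast range overlapped that of normoxic proliferating cultures, 57.2 to 64.8 CPM, and hypoxic proliferating cultures were at 46.5 to 47.1 CPM. Both chondrocyte groups lay above both osteoblast groups, at 1053 to 2533 CPM in normoxic and 784 to 1271 CPM in hypoxic cultures. In smooth muscle cultures this sum was 68.4 to 82.2 CPM in normoxic and 67.8 to 72.0 CPM in hypoxic libraries. Normoxic osteoblast replicate 4 held the highest level of the cartilage collagen Col2a1 in its group, 786 CPM against a lowest library of 36.0 CPM. The part of these differences in the changes of the members was not tested. CPM means counts per 1000000 counts of the library, scaled by edgeR's TMM method, and tests are edgeR quasi-likelihood tests with Benjamini-Hochberg adjustment over all genes of the fit. The labels number the replicates without saying whether they were separate cultures, so the p-values measure the spread between these libraries, which may be technical. In bulk RNA, fewer cells of a type and less RNA per cell cannot be told apart.

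Low oxygen raised Egln1 and Egln3 in all 4 media, lowered Arnt2 in all 4 and raised Vhl in proliferating cultures. In proliferating cultures, 7 of the 9 members tested were called at an adjusted p under 0.05, 6 higher (Hif1a, Epas1, Arnt, Egln1, Egln3, Vhl) and 1 lower (Arnt2), beside 65.2% of the 14154 genes tested (33.3% higher, 31.8% lower). Epas1 passed the filter on low counts only through the hypoxic group, where it was high, and so had to differ. Of the 8 other members tested, 6 were called, 5 higher and 1 lower. In chondrocyte cultures 3 of 9 were called, Egln1 and Egln3 higher and Arnt2 lower, beside 22.2% of the 14266 genes tested (11.1% higher, 11.1% lower). In osteoblast cultures 6 of 10 were called, with Hif1a, Arnt, Egln1 and Egln3 higher and Arnt2 and Hif1an lower, beside 54.3% of the 14515 genes tested (26.7% higher, 27.6% lower), and with library totals Egln2 and Vhl were called lower as well. The most calls were made in smooth muscle cultures, 8 of 9, with Arnt, Egln1, Egln2 and Egln3 higher and Hif1a, Arnt2, Hif1an and Vhl lower, beside 75.4% of the 15394 genes tested (33% higher, 42.4% lower). The shares of members called are to be read against these backgrounds, which were high in 3 of the 4 media. Counting only calls whose log2 fold change reached 1 in either direction, the numbers were 4 (3 without Epas1), 2, 3 and 5 members in the same order, against 18.5%, 6.22%, 22.4% and 50.6% of all genes tested. Hif3a was not tested in proliferating or smooth muscle cultures and Epas1 not in chondrocyte cultures, because their counts were under the filter.

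**Figure D1:**
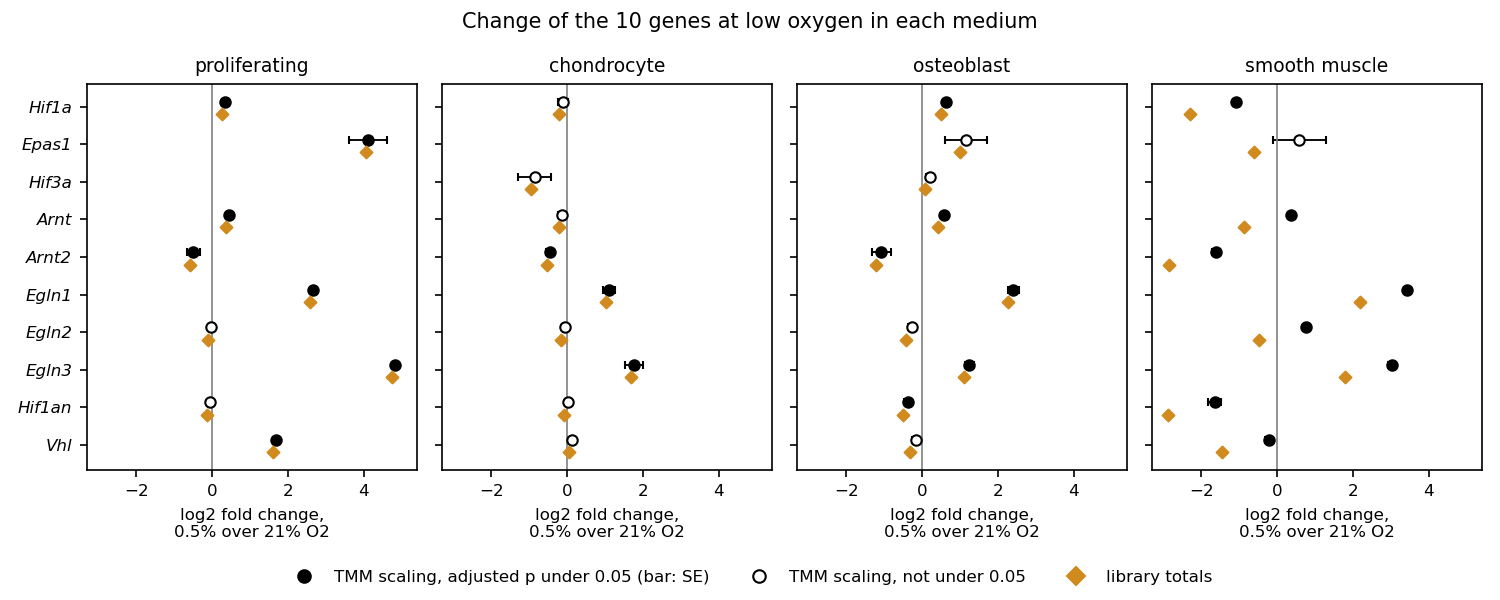
Log2 fold change of each gene at 0.5% over 21% O2 in the 4 media; circles with SE bars use TMM scaling, filled where the adjusted p was under 0.05 and open where it was not, and diamonds use library totals. Egln1 and Egln3 lie to the right of 0 and Arnt2 to the left in every medium, and in smooth muscle cultures the diamonds for Arnt, Egln2 and Epas1 lie on the other side of 0 from the circles.

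The directions in smooth muscle cultures are relative to the scaling. With library totals in place of TMM, the median change of all genes there moved from -0.226 to -1.49 on the log2 scale. Of the called genes, 15.6% instead of 43.8% were then higher. Arnt and Egln2 then turned to -0.87 and -0.48, and Epas1, which was not called, turned from 0.58 to -0.62. Less the median of all genes under each scaling, the change of Arnt was 0.584 with TMM and 0.618 with library totals, and that of Egln2 was 0.977 and 1.01. Arnt and Egln2 thus stood above the typical gene. The change of scaling moves all genes of a comparison by nearly the same amount, so the nearness of these paired values is no separate support. Egln1 and Egln3 were higher under both scalings, and Hif1a, Arnt2, Hif1an and Vhl were lower under both. Less the median of all genes, however, Vhl stood at 0.0067 and 0.041, the level of the typical gene. With library totals the share of called genes that were higher changed from 50.1% to 31.8% in chondrocyte and from 49.2% to 36.9% in osteoblast cultures at low oxygen. There the median of all genes went from 0.01 to -0.08 and from -0.04 to -0.19.

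The prolyl hydroxylases are described first. Because Egln1 and Egln3 rose together in every medium while Egln2 was called higher in smooth muscle cultures only, and there not with library totals, the 250 bases before their RefSeq start sites (assembly GRCm38.p6, the same build as mm10) are shown, 5′ to 3′ on the strand of the gene, with each match to ACGTG or GCGTG on either strand in capitals. Both are forms of the core of the hypoxia response element that HIF binds, and no overlap with another searched motif occurs in these sequences. The Egln1 window is chr8:124949255-124949504 on the minus strand, that of Egln3 is chr12:54203875-54204124 on the minus strand and that of the first Egln2 start is chr7:27166803-27167052 on the minus strand.
Egln1: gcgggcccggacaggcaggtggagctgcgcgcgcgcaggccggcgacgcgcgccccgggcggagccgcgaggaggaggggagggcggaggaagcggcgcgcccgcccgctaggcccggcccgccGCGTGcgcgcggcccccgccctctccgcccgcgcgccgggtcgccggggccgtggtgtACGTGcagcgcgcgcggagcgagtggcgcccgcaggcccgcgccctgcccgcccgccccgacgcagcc
Egln3: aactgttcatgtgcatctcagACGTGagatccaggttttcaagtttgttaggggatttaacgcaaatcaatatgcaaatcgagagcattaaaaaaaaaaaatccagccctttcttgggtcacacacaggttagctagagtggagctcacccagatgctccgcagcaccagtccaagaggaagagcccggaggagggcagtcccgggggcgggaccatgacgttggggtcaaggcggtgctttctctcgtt
Egln2: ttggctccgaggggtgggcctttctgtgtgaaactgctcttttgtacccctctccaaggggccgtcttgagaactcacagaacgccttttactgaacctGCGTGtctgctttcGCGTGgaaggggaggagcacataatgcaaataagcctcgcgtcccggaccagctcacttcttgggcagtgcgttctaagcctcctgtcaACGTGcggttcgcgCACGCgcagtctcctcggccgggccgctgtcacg

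The Egln1 window holds ACGTG with its first base 68 bases before the start and GCGTG 126 bases before it. That of Egln3 holds ACGTG 229 bases before the start. The Egln2 window holds ACGTG 48 bases before the start and GCGTG at 151, 137 and, on the opposite strand, 34 bases. Egln2 thus has more matches than either of the genes that rose in all media. Of 32851 mouse promoter windows of this length, 16.6% hold ACGTG, 28.2% hold GCGTG and 38.6% hold at least 1 of them. Of the members, 9 of 10 were in the promoter table, with 10 windows between them, and Epas1 was not. ACGTG also lies in the Hif1a window, as an overlapping pair on opposite strands at 134 and 135 bases and again at 70 bases, and GCGTG lies in those of Arnt, Hif3a and the second Egln2 start. The windows of Arnt2, Hif1an and Vhl hold neither. A match is a description of the letters and not a site shown to be bound.

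Egln1 (ENSMUSG00000031987, chr8:124908587-124949324, minus strand, mm10) encodes PHD2, the hydroxylase known as the main oxygen sensor of most cells. In proliferating cultures it was at 98.1, 103, 97.0 and 81.5 CPM in the 4 normoxic and at 602, 621 and 590.2 CPM in the 3 hypoxic libraries, and all hypoxic libraries lay far above all normoxic ones. The log2 fold change was 2.67 (SE 0.069, adjusted p = 3.63e-13), a 6.36-fold rise. Smooth muscle libraries went from 59.2, 63.4, 63.4 and 62.7 to 741, 643 and 615 CPM, again with no overlap, and its change of 3.42 (SE 0.083, adjusted p = 3.11e-14) was the largest of this gene in the 4 media with TMM scaling, while with library totals it was 2.19 there and 2.59 in proliferating cultures. In osteoblast cultures the libraries went from 77.3, 79.0, 75.5 and 55.0 to 439, 373 and 326 CPM, a change of 2.40 (SE 0.15, adjusted p = 2.57e-06). Replicate 4 was the lowest of the normoxic osteoblast libraries. In chondrocyte cultures the normoxic libraries were the highest of the normoxic groups at 128, 178, 175 and 217 CPM, the hypoxic ones stood at 386, 349.5 and 389.7 CPM, and the change was 1.11 (SE 0.15, adjusted p = 0.00117). The groups did not overlap, and the 4 hypoxic groups held the 4 highest mean levels of Egln1, between 375 and 666 CPM, above 4 normoxic means between 62.2 and 174 CPM. With TMM scaling hypoxic smooth muscle and proliferating libraries overlapped in level, while with library totals they stood at 329 to 404 and 672 to 714 CPM. There was also overlap between hypoxic osteoblast and chondrocyte libraries.

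Egln3 (ENSMUSG00000035105, chr12:54178981-54203860, minus strand, mm10) encodes PHD3, a hydroxylase whose RNA is known to rise strongly through HIF. Its hypoxic proliferating libraries stood at 459, 448 and 466 CPM and the normoxic ones at 14.6, 16.9, 14.7 and 18.3 CPM. This rise of 4.83 (SE 0.074, adjusted p = 1.64e-15), or 28.4-fold, was the largest of any member in the 4 low-oxygen comparisons. Smooth muscle libraries rose from 18.4, 17.3, 14.7 and 20.1 to 137, 137 and 153 CPM, by 3.02 (SE 0.11, adjusted p = 1.92e-12). With library totals the rise there was smaller, from a group mean of 22.0 to 75.9 CPM. Chondrocyte libraries rose from 63.5, 131, 122 and 120.3 to 391, 349.9 and 369 CPM, by 1.76 (SE 0.24, adjusted p = 0.00268), and replicate 1 was the low one among the normoxic libraries. Osteoblast libraries were high at 21% O2, at 383, 393, 371 and 295 CPM, and higher at 0.5% O2, at 822, 815 and 929 CPM, by 1.25 (SE 0.12, adjusted p = 2.69e-05). The normoxic osteoblast level overlapped that of hypoxic chondrocyte cultures. The group means of Egln3 spanned 53.0-fold, the widest of the 9 members with counts in every group.

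Egln2 (ENSMUSG00000058709, chr7:27158658-27166802, minus strand, mm10) encodes PHD1, a hydroxylase not known to be induced by HIF. Its group means spanned 2.38-fold, from 37.3 to 89.0 CPM, the narrowest range of the members. In proliferating cultures the libraries were at 40.5, 40.8, 34.0 and 36.3 CPM at 21% O2 and 39.3, 38.9 and 33.8 CPM at 0.5% O2, which overlap, with a change of -0.03 (SE 0.080, adjusted p = 0.799). Chondrocyte libraries overlapped as well, with a change of -0.06 (SE 0.075, adjusted p = 0.625). Osteoblast libraries went from 61.3, 59.8, 63.1 and 53.0 to 43.2, 49.5 and 55.1 CPM, with an overlap through normoxic replicate 4, a change of -0.27 (SE 0.10, adjusted p = 0.0552) that missed the threshold, and without normoxic osteoblast replicate 4 it was -0.32 (adjusted p = 0.00563). The TMM-scaled level in smooth muscle cultures was 50.6, 53.1, 51.6 and 56.2 and then 83.2, 93.5 and 90.2 CPM, a rise of 0.75 (SE 0.083, adjusted p = 9.64e-07), which library totals turned to a fall. Egln2 shares 11 exon bases with Cyp2t4 on the opposite strand, and whether the counting used strand is not given in the sources used here.

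**Figure D2:**
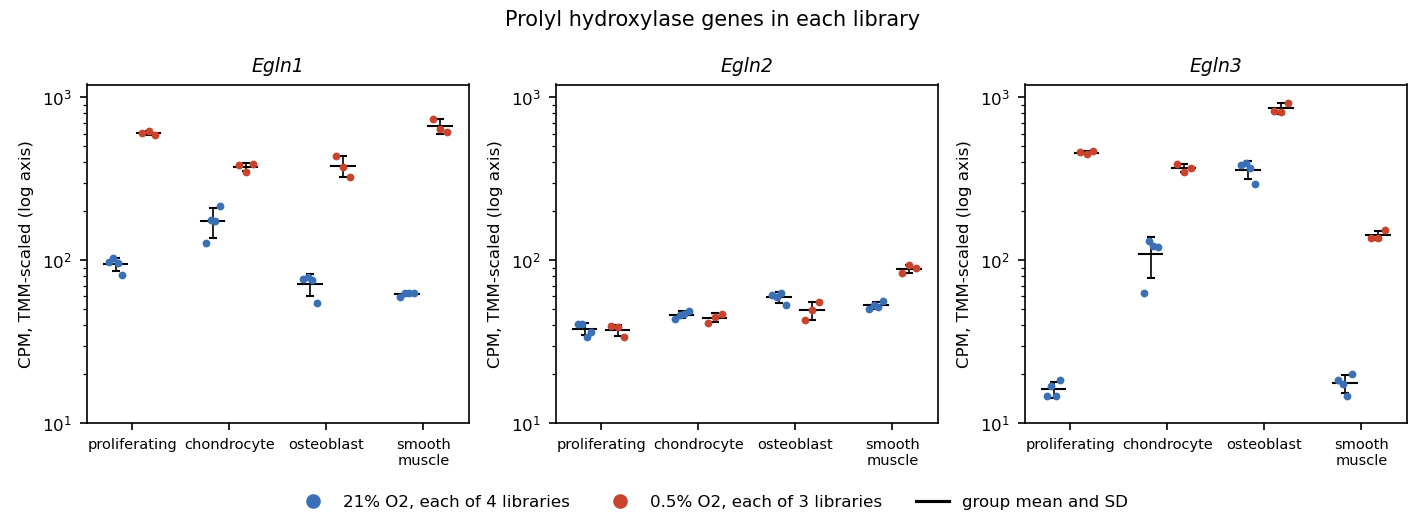
Level of Egln1, Egln2 and Egln3 in each library (points, CPM on a log axis) in the 4 media at 21% O2 (4 libraries) and 0.5% O2 (3 libraries), with group means and SD. Hypoxic Egln1 libraries lie above all normoxic libraries of the same medium, Egln3 is at or above 295 CPM in normoxic osteoblast cultures, and Egln2 stays between 33.8 and 93.5 CPM.

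Set against each other per kilobase of exon, the hydroxylases changed places with oxygen and medium. The summed level of the 3 genes was 46.0 ± 3.04 CPM per kb (SD, n = 4) in normoxic proliferating and 353 ± 2.04 CPM per kb (SD, n = 3) in hypoxic proliferating cultures. Of that sum, Egln1 held 57.3% ± 2.95 (SD, n = 4), Egln2 29.4% ± 1.59 and Egln3 13.2% ± 2.01 at 21% O2. At 0.5% O2 Egln3 held 48.7% ± 1.19 (SD, n = 3) and Egln2 3.77% ± 0.289. In osteoblast cultures Egln3 led at both oxygen levels, with 76.7% ± 0.505 (SD, n = 4) at 21% and 72.2% ± 3.44 (SD, n = 3) at 0.5% O2. The share of Egln1 there went from 11.3% to 23.8%. Normoxic smooth muscle cultures had the largest share of Egln2, 44.1% ± 0.404 (SD, n = 4), and hypoxic ones the largest share of Egln1, 68.4% ± 3.11 (SD, n = 3). A share is a ratio within a library and does not depend on the scaling, but it does depend on the gene length used. Per kilobase of the longest transcript, Egln2 held 51.2% in normoxic smooth muscle and 35.7% in normoxic proliferating cultures. These shares are descriptions without a test, and unequal change of the parts is all they show.

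**Figure D3:**
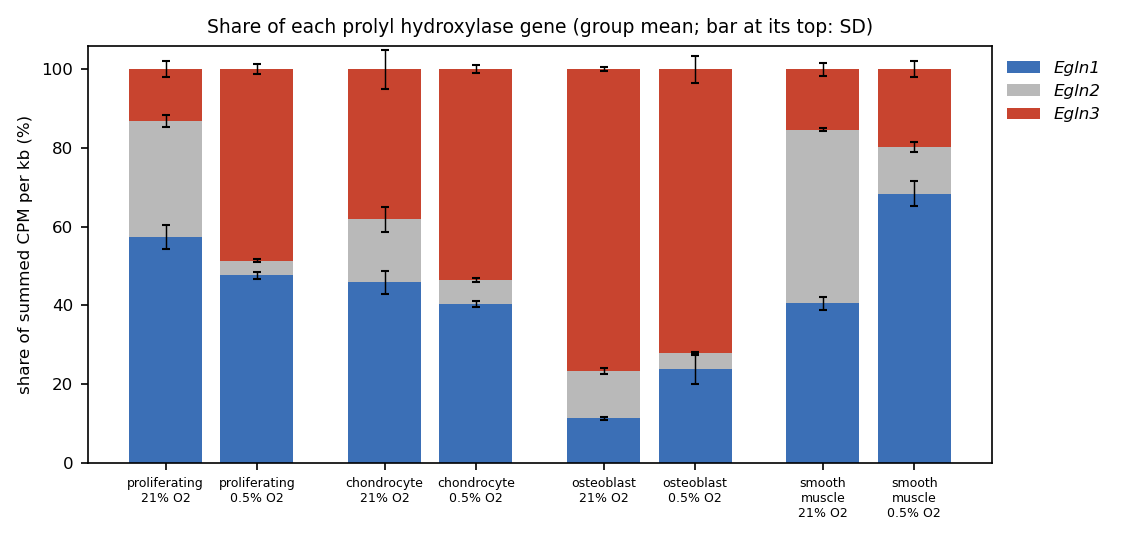
Share of each prolyl hydroxylase gene in the summed CPM per kilobase of exon of the 3 genes (group mean in percent, stacked to 100, with the SD of each share at its top) in the 8 groups, 4 libraries at 21% and 3 at 0.5% O2. Egln3 fills 13.2% of the sum in normoxic proliferating and 76.7% in normoxic osteoblast cultures, and Egln2 takes a smaller share at 0.5% O2 in every medium.

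Vhl (ENSMUSG00000033933, chr6:113623959-113631633, plus strand, mm10), which recognises the hydroxylated alpha subunits, differed in its change with oxygen between the 4 kinds of culture. These differ in culture time as well as in medium, and the 2 cannot be told apart. In proliferating cultures it was at 18.9, 17.4, 17.7 and 17.4 CPM at 21% and 55.6, 60.5 and 55.3 CPM at 0.5% O2, a rise of 1.68 (SE 0.065, adjusted p = 3.37e-11), or 3.20-fold. With TMM scaling those 4 normoxic libraries were the lowest of all groups, while with library totals the hypoxic smooth muscle libraries were, at 17.3 to 19.7 CPM against 20.6 to 23.2 CPM. Chondrocyte libraries overlapped, at 37.5, 45.3, 44.6 and 51.5 and 55.3, 47.2 and 44.9 CPM, and the change was 0.14 (SE 0.11, adjusted p = 0.414). In osteoblast cultures they overlapped too, with a change of -0.17 (SE 0.094, adjusted p = 0.164). Smooth muscle libraries went from 39.8, 40.8, 40.2 and 42.4 to 36.1, 33.3 and 35.7 CPM, a change of -0.22 (SE 0.093, adjusted p = 0.0437) that did not overlap between groups. Leaving out single libraries moved that last adjusted p to between 0.0406 and 0.0935, and it missed the threshold without any 1 of normoxic replicates 1 to 4 or of hypoxic replicates 2 and 3, and with DESeq2 (-0.06, adjusted p = 0.578).

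Hif1an (ENSMUSG00000036450, chr19:44562850-44576274, plus strand, mm10) encodes FIH, the hydroxylase that blocks coactivator binding. Its change was -0.06 in proliferating cultures (adjusted p = 0.448) and 0.01 in chondrocyte cultures (adjusted p = 0.938), and the libraries overlapped in both. In osteoblast cultures it went from 64.7, 62.6, 66.5 and 61.4 to 56.8, 49.8 and 41.7 CPM without overlap, a change of -0.37 (SE 0.11, adjusted p = 0.0165) and, without hypoxic osteoblast replicate 2, an adjusted p of 0.0524. It fell in smooth muscle cultures from 57.7, 59.4, 53.4 and 54.7 to 11.8, 19.0 and 23.3 CPM, with a log2 fold change of -1.65 (SE 0.17, adjusted p = 3.67e-07), its largest change. The 3 hypoxic smooth muscle libraries held the lowest levels of Hif1an of the 28.

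**Figure D4:**
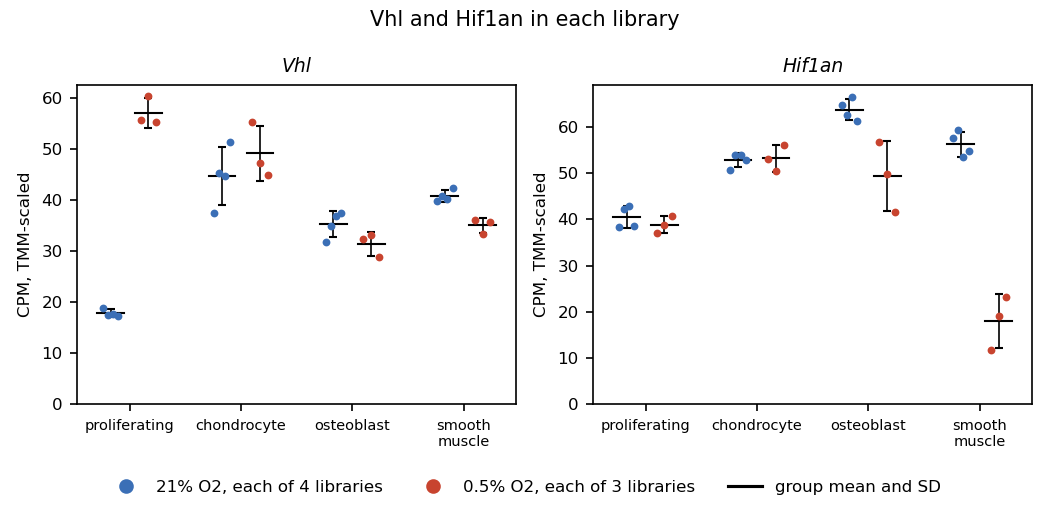
Level of Vhl and Hif1an in each library (points, CPM) in the 4 media at 21% O2 (4 libraries) and 0.5% O2 (3 libraries), with group means and SD. With the TMM scaling plotted, Vhl is lowest in normoxic proliferating cultures, at 17.4 to 18.9 CPM (with library totals in hypoxic smooth muscle cultures), and Hif1an is lowest in hypoxic smooth muscle cultures, at 11.8 to 23.3 CPM.

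Among the alpha subunits, Hif1a (ENSMUSG00000021109, chr12:73901375-73947530, plus strand, mm10) was by far the most abundant per kilobase of exon in every group. Its RNA moved in opposite directions in different media at low oxygen. Proliferating libraries went from 167, 159.6, 164 and 169 to 205, 204 and 223 CPM, a rise of 0.35 (SE 0.050, adjusted p = 2.23e-05). Osteoblast libraries went from 250.3, 254, 252 and 259 to 384, 384 and 416 CPM, a rise of 0.64 (SE 0.076, adjusted p = 1.22e-04), and these hypoxic libraries were the highest of the 28. Smooth muscle libraries went from 179.6, 191, 194 and 150.3 to 88.9, 81.6 and 82.4 CPM, with a log2 fold change of -1.08 (SE 0.097, adjusted p = 8.72e-08), and these hypoxic libraries were the lowest. In each of these 3 media the groups did not overlap. In chondrocyte cultures the normoxic libraries spread from 189 to 291 CPM around the hypoxic ones, at 226, 211 and 202 CPM, and the change of -0.12 (adjusted p = 0.585) took the other sign without normoxic replicate 4. Hif1a shares 330 exon bases with Gm15283 on the opposite strand and 148 with Gm49321 on its own, so reads there could belong to either gene.

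Epas1 (ENSMUSG00000024140, chr17:86753700-86833410, plus strand, mm10), which encodes HIF-2alpha and is best known from vessels, was detected at very low levels. The normoxic proliferating libraries held 2, 3, 2 and 1 counts and the hypoxic ones 26, 29 and 19, or 0.0517, 0.0392, 0.0639 and 0.0343 against 0.855, 1.06 and 0.655 CPM. The groups did not overlap. No fold or p is given for this difference, since the gene entered the fit only through its hypoxic libraries. Osteoblast libraries held 5, 10, 21 and 35 counts at 21% and 27, 30 and 57 at 0.5% O2, with overlap in CPM and a change of 1.16 (SE 0.54, adjusted p = 0.0995), and without normoxic osteoblast replicate 4 the change was 1.65 (adjusted p = 0.00936). Smooth muscle libraries held 6, 18, 9 and 19 and 15, 4 and 2 counts, a change of 0.58 (SE 0.70, adjusted p = 0.462) that turned to -0.44 without hypoxic replicate 1. Chondrocyte libraries had 0, 2, 3 and 4 counts at 21% and 9, 1 and 3 at 0.5% O2, too few for a test. Per kilobase of exon, Epas1 made up between 0.0302% (normoxic proliferating) and 0.672% (hypoxic smooth muscle) of the alpha subunit RNA by group mean. The summed level of 3 endothelial markers was at most 7.70 CPM in any library, and most of it was Pecam1. By group mean Pecam1 was at 0.370 CPM in normoxic and 0.902 CPM in hypoxic proliferating, 2.39 and 6.41 CPM in chondrocyte, 0.820 and 1.72 CPM in osteoblast, and 0.854 and 2.31 CPM in smooth muscle cultures. Cdh5 and Kdr were at most 0.153 CPM by group mean, and the part of these markers in the level of Epas1 was not tested.

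Hif3a (ENSMUSG00000004328, chr7:17031507-17062427, minus strand, mm10) encodes an alpha subunit with several splice forms, some known to oppose the other subunits. It was present in the chondrocyte and osteoblast groups and not detected in proliferating cultures. No count fell on it in the 7 proliferating or the 3 hypoxic smooth muscle libraries, which allows up to 0.0171 CPM over the normoxic proliferating group, 0.0345 CPM over the hypoxic proliferating group and 0.0855 CPM over the hypoxic smooth muscle group, taking 3 counts of each group's total and counting error only. Normoxic smooth muscle libraries held 0, 5, 3 and 0 counts. Chondrocyte libraries were at 23.7, 35.4, 36.3 and 47.7 CPM at 21% and 33.4, 13.5 and 12.3 CPM at 0.5% O2, which overlap through hypoxic replicate 1. That change was -0.85 (SE 0.43, adjusted p = 0.228), and -1.47 (adjusted p = 0.00926) without the library named. Osteoblast libraries were higher, at 96.2, 99.4, 96.7 and 75.9 and 103, 117 and 99.0 CPM, with overlap and a change of 0.21 (SE 0.11, adjusted p = 0.136). Of the alpha subunit RNA per kilobase, Hif3a took 11.9% ± 1.35 (SD, n = 4) in normoxic and 7.29% ± 3.63 (SD, n = 3) in hypoxic chondrocyte cultures. In osteoblast cultures the shares were 24.1% ± 2.46 (SD, n = 4) and 19.1% ± 1.93 (SD, n = 3).

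The beta subunits went opposite ways at low oxygen in 3 media with TMM scaling. Arnt (ENSMUSG00000015522, chr3:95434388-95497240, plus strand, mm10), the common partner of the HIF alpha subunits and of the aryl hydrocarbon receptor, rose in proliferating cultures from 45.1, 42.9, 43.9 and 49.6 to 59.0, 64.0 and 62.3 CPM, by 0.45 (SE 0.064, adjusted p = 2.10e-05). It rose in osteoblast cultures from 82.9, 82.1, 79.2 and 78.6 to 113, 119 and 128 CPM, by 0.58 (SE 0.075, adjusted p = 2.07e-04). In smooth muscle cultures the TMM-scaled libraries went from 85.1, 87.8, 84.3 and 89.0 to 112, 112 and 109 CPM, by 0.36 (SE 0.074, adjusted p = 4.59e-04), which library totals turned to a fall. In chondrocyte cultures the groups overlapped, with a change of -0.13 (SE 0.11, adjusted p = 0.456), and without hypoxic replicate 1, the high library of its group, it was -0.29 (adjusted p = 0.0232).

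Arnt2 (ENSMUSG00000015709, chr7:84246278-84410176, minus strand, mm10) encodes a relative of ARNT best known from neurons, and its RNA was lower at low oxygen in each medium with no overlap of libraries. Smooth muscle libraries went from 133, 132, 125 and 127, the highest of the series, to 43.7, 34.6 and 48.0 CPM, a change of -1.62 (SE 0.10, adjusted p = 2.26e-09). Osteoblast libraries went from 72.2, 70.6, 67.3 and 32.9 to 30.1, 28.3 and 27.97 CPM, a change of -1.08 (SE 0.25, adjusted p = 0.00714), with normoxic replicate 4 close to the hypoxic libraries. Proliferating libraries went from 43.6, 45.7, 43.6 and 68.3 to 35.4, 33.7 and 37.9 CPM, with normoxic replicate 4 above the rest, and chondrocyte libraries from 25.0, 28.7, 32.7 and 33.1 to 21.4, 21.9 and 22.6 CPM. Those changes were -0.49 (SE 0.17, adjusted p = 0.0325) and -0.44 (SE 0.11, adjusted p = 0.0114), and without normoxic proliferating replicate 4 the former was -0.31 (adjusted p = 5.38e-05). The call in proliferating cultures was lost without any 1 of the 3 hypoxic libraries, with adjusted p-values of up to 0.0934, and with no filter on low counts (adjusted p = 0.112). That in chondrocyte cultures was lost with all 28 libraries in 1 fit (adjusted p = 0.114). Per kilobase of exon, the ratio of Arnt2 to Arnt was 1.56 ± 0.0573 (SD, n = 4) in normoxic and 0.396 ± 0.0697 (SD, n = 3) in hypoxic smooth muscle cultures. It was 1.15 ± 0.197 (SD, n = 4) and 0.602 ± 0.0473 (SD, n = 3) in proliferating cultures. Per kilobase of the longest transcript these 4 ratios were 1.04, 0.264, 0.764 and 0.402, so which beta subunit led in normoxic proliferating cultures depended on the length used. The lower ratio at 0.5% O2 did not. Arnt2 shares 214 exon bases with Gm30873 on the opposite strand.

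**Figure D5:**
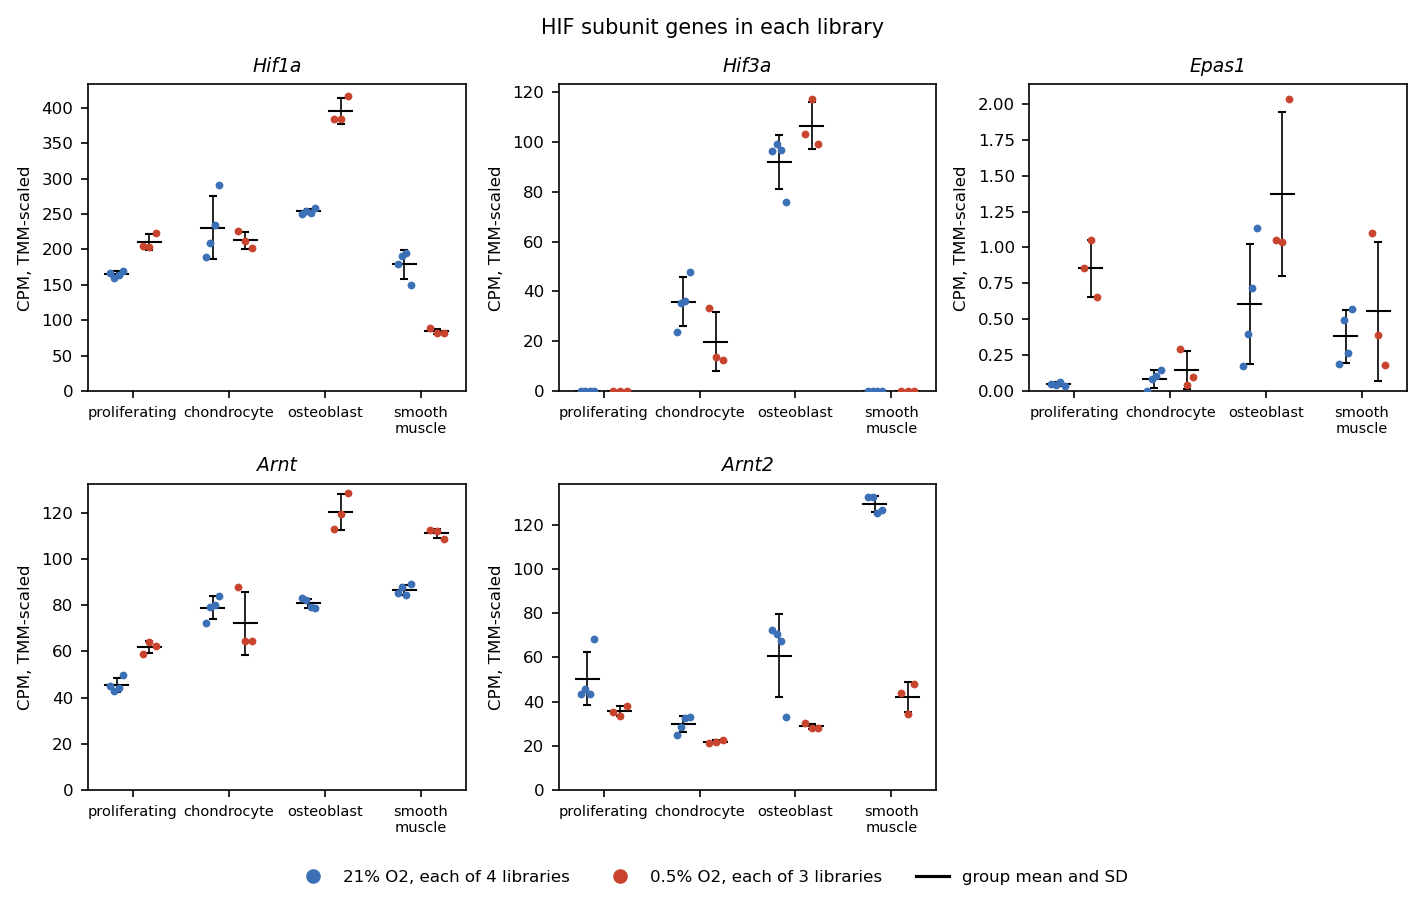
Level of the HIF subunit genes Hif1a, Hif3a, Epas1, Arnt and Arnt2 in each library (points, CPM, each panel with its own axis from 0) in the 4 media at 21% O2 (4 libraries) and 0.5% O2 (3 libraries), with group means and SD. Hif3a is at or near 0 outside the chondrocyte and osteoblast groups, Epas1 does not pass 2.03 CPM in any library, and Arnt2 is lower at 0.5% O2 in each medium.

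At 21% O2 each differentiated group was compared with normoxic proliferating cultures, a group that all 3 comparisons share. In chondrocyte cultures 9 of 9 members tested were called, 8 higher and Arnt2 lower, beside 75.3% of the 14276 genes tested (36.9% higher, 38.4% lower). In osteoblast cultures 8 of 9 were called, 7 higher and Egln1 lower, beside 78.7% of the 14387 genes tested (41.4% higher, 37.3% lower). Of the 8 tested in smooth muscle cultures 6 were called, 5 higher and Egln1 lower, beside 79.5% of the 14606 genes tested (41.8% higher, 37.7% lower). Egln3 rose by 2.76 (SE 0.22, adjusted p = 2.12e-06) in chondrocyte and by 4.48 (SE 0.12, adjusted p = 2.07e-09) in osteoblast cultures, and its change in smooth muscle cultures was 0.13 (SE 0.11, adjusted p = 0.283). Egln1 rose in chondrocyte cultures (0.88, adjusted p = 2.48e-04) and was lower in osteoblast (-0.40, adjusted p = 0.0114) and smooth muscle cultures (-0.61, adjusted p = 4.49e-07). Hif3a was at least 2066-fold higher in chondrocyte and at least 5358-fold higher in osteoblast cultures than the 3 counts allowed over the proliferating group. It passed the filter only through the differentiated groups, so no p is given for it. Without Hif3a, 8 of 8 members were called in chondrocyte cultures (7 higher) and 7 of 8 in osteoblast cultures (6 higher). Vhl was higher in all 3 by 0.98 to 1.32, Arnt by 0.80 to 0.93, and Egln2 and Hif1an by 0.29 to 0.65, all on the log2 scale. With library totals Egln2 in chondrocyte cultures turned to -0.03, Hif1a and Hif1an there missed the threshold, the median of all genes moved from -0.03 to -0.35, and the higher ones among called genes went from 49.0% to 34.7%. Hif1a rose in chondrocyte (0.48, adjusted p = 0.00206) and osteoblast cultures (0.62, adjusted p = 1.62e-06). In smooth muscle cultures its change was 0.12 (adjusted p = 0.140) and, without normoxic smooth muscle replicate 4, 0.19 (adjusted p = 0.00261). Arnt2 rose in smooth muscle cultures by 1.37 (SE 0.13, adjusted p = 4.55e-06), and in osteoblast cultures its change of 0.27 (adjusted p = 0.332) passed the threshold without normoxic osteoblast replicate 4 (0.48 (adjusted p = 0.0249)).

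At 0.5% O2 the same comparisons were made with hypoxic proliferating cultures. In chondrocyte cultures 8 of 10 members were called, 3 higher and 5 lower, beside 69.3% of the 14402 genes tested (35% higher, 34.3% lower). In osteoblast cultures 9 of 10 were called, 6 higher and 3 lower, beside 71.3% of the 14378 genes tested (36.3% higher, 35% lower). Of the 9 tested in smooth muscle cultures 6 were called, 2 higher and 4 lower, beside 72% of the 14070 genes tested (30.6% higher, 41.4% lower). Hif3a was at least 585-fold higher in chondrocyte and at least 3090.4-fold higher in osteoblast cultures than 3 counts over hypoxic proliferating cultures allow. Without hypoxic chondrocyte replicate 1 the chondrocyte bound was 372-fold. Epas1 in chondrocyte cultures and Hif3a in both passed the filter through 1 group alone, and without them 6 of 8 members were called in chondrocyte cultures (2 higher, 4 lower) and 8 of 9 in osteoblast cultures (5 higher, 3 lower). Egln1 was lower in chondrocyte (-0.69) and osteoblast cultures (-0.67) (adjusted p = 4.47e-07 and 5.34e-06). Egln3 was lower in chondrocyte (-0.31, adjusted p = 5.79e-04, but 0.112 with all 28 libraries in 1 fit) and smooth muscle cultures (-1.68, adjusted p = 4.16e-09) and higher in osteoblast cultures (0.90, adjusted p = 8.97e-09). Vhl was lower in chondrocyte (-0.22, adjusted p = 0.0350, lost without any 1 of 5 of its 6 libraries), osteoblast (-0.86, adjusted p = 2.37e-07) and smooth muscle cultures (-0.70, adjusted p = 3.84e-05). Hif1a was higher in osteoblast cultures (0.91, adjusted p = 6.88e-09) and lower in smooth muscle cultures (-1.32, adjusted p = 5.56e-08). Scaling mattered most in smooth muscle cultures, where with library totals 0 members were called higher and 8 lower, and Arnt turned from 0.84 to -0.26. The median of all genes moved there from -0.23 to -1.35, and the share of called genes that were higher from 42.5% to 15.0%. With library totals 1 member was called higher and 6 lower in chondrocyte cultures, where Hif1a became lower (-0.31) and Egln2 and Hif1an lost their calls, and 4 were higher and 3 lower in osteoblast cultures, where Egln2 and Hif1an lost theirs. The share of called genes that were higher moved from 50.5% to 31.8% in chondrocyte and from 50.9% to 38.2% in osteoblast cultures.

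The interaction tests asked whether the change with oxygen differed between each differentiated medium and proliferation, in fits over the 4 groups concerned. Between chondrocyte and proliferating cultures it differed for 6 of 9 members, all with the lower change in chondrocyte cultures, beside 43.5% of the 15272 genes tested (21.5% higher, 22% lower). The call of Epas1 among them rests on chondrocyte libraries of 0 to 9 counts, and it was lost without normoxic chondrocyte replicate 4 (adjusted p = 0.0734). Between osteoblast and proliferating cultures it differed for 5 of 9, 1 higher and 4 lower, beside 53.8% of the 15494 genes tested (26.9% higher, 26.9% lower), and without normoxic osteoblast replicate 4 for 8. With all 28 libraries in 1 fit the calls of Hif1a and Hif1an in it were lost (adjusted p = 0.0837 and 0.128). Between smooth muscle and proliferating cultures it differed for 8 of 9, 2 higher and 6 lower, beside 69.3% of the 16044 genes tested (31.1% higher, 38.2% lower). The counts of all 3 tests include Epas1, whose normoxic proliferating libraries held 1 to 3 counts. Without it 5 of 8 members differed in the chondrocyte, 4 of 8 in the osteoblast and 7 of 8 in the smooth muscle test. The log2 change of Egln3 differed from that in proliferating cultures by -3.06 in chondrocyte, -3.58 in osteoblast and -1.81 in smooth muscle cultures. The change of Vhl differed by -1.54, -1.84 and -1.90 in the same order. All 3 tests share the proliferating groups, where Vhl rose by 1.68, so these values are not independent. With library totals the group means of Vhl at 21% and 0.5% O2 were 51.0 and 18.7 CPM in smooth muscle cultures. They were 21.6 and 65.3 CPM in proliferating cultures. For Egln1 the difference was -1.56 in chondrocyte cultures, -0.27 in osteoblast cultures (adjusted p = 0.206) and 0.75 in smooth muscle cultures with TMM, which library totals turned to -0.40. The median of all genes in that test moved from -0.19 to -1.37. Less that median, Egln1 stood at 0.940 and 0.973 and Egln2 at 0.964 and 0.995, above the typical gene. The scaling moves all genes by nearly the same amount, so the paired values are near each other by construction. With library totals 0 members were higher and 9 lower in the smooth muscle test, where the share of called genes that were higher moved from 44.8% to 16.6%. Hif3a had no estimate, since both proliferating groups were at 0.

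Genes around the pathway were described from 3 lists. Of 17 genes tested for the degradation and cofactors of HIF, 6 rose and 6 fell at low oxygen in proliferating cultures, 4 rose and 1 fell in chondrocyte, 8 rose and 3 fell in osteoblast, and 6 rose and 9 fell in smooth muscle cultures. Over all genes tested, 33.3%, 11.1%, 26.7% and 33% were higher and 31.8%, 11.1%, 27.6% and 42.4% lower in the same order. Cited2, which competes with HIF for its coactivators, rose by 0.78 in proliferating, 1.54 in chondrocyte and 1.17 in osteoblast cultures on the log2 scale. Eloc, a partner of VHL in the ubiquitin ligase, fell by 0.40 in proliferating and by 0.35 in osteoblast cultures. Os9 rose by 0.87 and the ubiquitin ligase gene Siah1b fell by 1.02 in proliferating cultures. P4htm, a transmembrane prolyl hydroxylase, fell by 1.13 in osteoblast cultures. Rack1 rose by 1.01 in osteoblast cultures. It rose by 3.85 and the chaperone gene Hsp90ab1 by 2.75 in smooth muscle cultures, while the coactivator genes Ncoa2 and Ep300 fell by 2.24 and 1.40. Ncoa1 fell by 0.40 and Hsp90aa1 rose by 0.49 in chondrocyte cultures. The list's medians were -0.05, 0.06, 0.06 and -0.52 in the order proliferating, chondrocyte, osteoblast and smooth muscle, beside medians of 0.02, 0.01, -0.04 and -0.23 over all genes. With library totals 4 rose and 8 fell in proliferating, 3 rose and 2 fell in chondrocyte, 8 rose and 5 fell in osteoblast, and 2 rose and 14 fell in smooth muscle cultures, and the genes named here kept their directions.

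Of 30 known HIF target genes, 28 rose in proliferating, 22 in chondrocyte, 27 in osteoblast and 28 in smooth muscle cultures at low oxygen, and 0, 0, 0 and 2 fell. Their median changes were 2.78, 1.22, 3.13 and 3.27 in the same order, beside the medians of all genes given above. With library totals 28, 22, 27 and 26 rose and 0, 0, 1 and 2 fell. The medians were then 2.70, 1.13, 2.98 and 2.04, beside -0.06, -0.08, -0.19 and -1.49 over all genes. The hypoxia markers Car9, a carbonic anhydrase, and Slc2a3, a glucose transporter, had the largest called rises in proliferating cultures, 6.61 and 5.15. Ankrd37 and Car9 had them in chondrocyte cultures, 2.39 and 2.04, and Car12 and Ankrd37 in osteoblast cultures, 7.66 and 4.86. In smooth muscle cultures the glycolytic genes Gapdh and Pgk1 had them, 7.87 and 7.33, and Loxl2 and Pfkfb4 fell by 3.04 and 1.28. At 21% O2, 22 of the 30 targets were higher in chondrocyte than in proliferating cultures and 2 lower (20 and 7 with library totals), with a median of 1.86. In osteoblast cultures 11 were higher and 12 lower, with a median of 0.079, and of 29 tested in smooth muscle cultures 8 were higher and 15 lower, with a median of -0.31. The shares of all genes called in each direction in these comparisons are given above. This list was chosen as genes known to rise at low oxygen, and with earlier results of these data known, so its counts are no independent evidence of direction.

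Of the other bHLH-PAS genes, which share or resemble the ARNT partners, 11 were listed and 7 or 8 were tested in each low-oxygen comparison. In proliferating cultures 2 rose and 2 fell, in chondrocyte cultures 1 rose and 2 fell, and in osteoblast cultures 2 rose and 1 fell, beside the shares of all genes given above for each medium. The medians were -0.03, -0.43 and 0.22 in that order. The clock genes Npas2 and Arntl rose in proliferating cultures, by 1.39 and 0.69, and in osteoblast cultures, by 1.57 and 1.00. Npas2 rose by 1.08 in chondrocyte cultures, where Ahr, the aryl hydrocarbon receptor, fell by 1.03 and Clock by 0.44. Clock also fell by 0.58 in proliferating cultures, and Npas4 fell by 1.499 there and by 1.48 in osteoblast cultures. Of 8 tested in smooth muscle cultures, 1 rose (Arntl2, by 1.89, or 0.66 with library totals) and 5 fell (7 with library totals), among them Npas3 by 1.87. Both counts of falls include Ahrr, which was at 0 in the 3 hypoxic libraries and at 1.39 CPM by mean in the normoxic ones. Ahrr passed the filter on low counts only through the normoxic group, and so had to differ. In smooth muscle cultures 33% of all genes tested were higher and 42.4% lower, and the list's median was -1.15 beside -0.23 over all genes.

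Over the 28 libraries, the genes whose log2(CPM + 1) was most like that of Egln1 were Fam162a (Pearson r = 0.986), Ankrd37 (0.977) and Ero1l (0.974), each known to rise at low oxygen. For Egln3 they were Arrb1 (0.940), Ndrg2 (0.914) and Myadm (0.909). For Hif1a they were Dpy19l4 (0.959), Ash1l (0.957) and Abcd3 (0.946). These are descriptions across libraries that share 8 groups, depth and scaling, taken among 13481 named genes. In the authors' deposited tables of the same 10 pairwise comparisons, 91 of 92 log2 fold changes of the members had the sign found here. That held for 70 of the 70 that were called here. Those tables describe the same libraries, so the shared signs are no independent support, and the 70 include values of Hif3a and Epas1 that passed the filter through 1 group. Sizes differed in places: Vhl at low oxygen in smooth muscle cultures, called here at -0.22, was at -0.069 in the authors' table.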

How the data were processed

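RNA of 28 libraries was sequenced from a stranded kit on polyadenylated RNA. The authors deposited 1 table of raw read counts per gene, whole numbers with no normalization, and 10 tables of their own comparisons with log2 fold changes and p-values, per the file headers. HISAT2 2.0.5, featureCounts 1.5.0-p3, StringTie 1.3.3b and the build mm10 are named in the submitters' processing notes; the annotation and the strand setting are not given in the sources used here. A further 70 per-library columns of the comparison tables were not used.

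Counts were scaled with TMM over all 28 libraries and tested with edgeR 4.0.16 in R 4.3.3 (quasi-likelihood, robust) on the libraries of each comparison, after filterByExpr with a minimum count of 10, with Benjamini-Hochberg adjustment over all genes kept and a threshold of 0.05. Alternatives were library totals, removal of mitochondrial genes, DESeq2 1.42.0, limma-voom 3.58.1, other filters, all libraries in 1 fit, fewer replicates, and a replicate block. The use of the longest transcript for levels per kilobase was chosen after seeing the data. Levels per kilobase use the exon union of GENCODE vM21, which also gave gene positions. Symbols came from the comparison tables for 20019 identifiers and from a reference table for 34311; 99 had none. Only the edgeR step was tested on simulated counts, for low oxygen in proliferating cultures. In the lists, the largest 2 called rises and falls of each low-oxygen comparison are named, while all members are. The members and lists were chosen with earlier results of these data known. The genes most like Epas1 across libraries are not reported here. Libraries of 1 group differed by more than counting error in all 36 pairs (chi-square per gene 2.89 to 97.1), so none was counted as a repeat.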

Additional observations from a re-analysis of the deposited data

Results flagged for a closer look

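In 5 of the 39 sets of 4 libraries examined, 1 library lay apart from the other 3 by Dixon's criterion, which chance alone meets in about 1 in 20. Replicate 4 of the normoxic osteoblast group was the low library for Hif3a (75.9 CPM), Arnt2 (32.9 CPM) and Egln1 (55.0 CPM). Replicate 4 of the normoxic proliferating group was the high library for Arnt2 (68.3 CPM), and replicate 1 of the normoxic chondrocyte group was the low one for Egln3 (63.5 CPM).

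The change with oxygen differed between a differentiated medium and proliferating cultures in 19 interaction tests, given here as the log2 change in the differentiated medium minus that in proliferating cultures (edgeR, adjusted over all genes). All of these share the proliferating groups, and the kinds of culture also differ in culture time. For chondrocyte cultures the differences were -0.47 for Hif1a, -3.26 for Epas1 (adjusted p = 0.0734 without normoxic chondrocyte replicate 4 and 0.0930 with replicates 1 to 3, on chondrocyte libraries of 0 to 9 counts), -0.57 for Arnt, -1.56 for Egln1, -3.06 for Egln3 and -1.54 for Vhl. For osteoblast cultures they were 0.29 for Hif1a, -2.95 for Epas1, -3.58 for Egln3, -0.31 for Hif1an (adjusted p = 0.04995, just inside the threshold, lost without most single libraries and 0.0878 with DESeq2) and -1.84 for Vhl. For smooth muscle cultures they were -1.44 for Hif1a, -3.51 for Epas1, -1.12 for Arnt2, 0.75 for Egln1, 0.77 for Egln2, -1.81 for Egln3, -1.60 for Hif1an and -1.90 for Vhl. The 3 values of Epas1 rest on normoxic proliferating libraries of 1 to 3 counts, and the gene entered these fits through the groups where it is high, so they are values without support from the test.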

How the results depend on the processing

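Of the member values recomputed under settings that keep every library or only replicates 1 to 3, 999 kept their direction and side of the threshold, 23 lost the call, 17 gained one and 19 turned direction. With library totals, low oxygen in smooth muscle cultures gave -0.62 for Epas1, -0.87 for Arnt and -0.48 for Egln2, and Hif1an in chondrocyte cultures gave -0.081. Against proliferating cultures, library totals gave -0.031 for Egln2 in chondrocyte cultures at high oxygen, -0.31 for Hif1a, -0.11 for Arnt and -0.077 for Egln2 in chondrocyte cultures at low oxygen, and -0.26 for Arnt, -0.86 for Arnt2 and -0.96 for Egln1 in smooth muscle cultures at low oxygen. The smooth muscle interaction became -0.40 for Egln1 and -0.38 for Egln2. DESeq2 gave -0.00327 for Hif1an in chondrocyte cultures at low oxygen and 0.12 for the smooth muscle interaction of Arnt. Replicates 1 to 3 alone gave 0.016 for Hif1a in chondrocyte cultures at low oxygen, and -0.079 for Arnt2 and 0.014 for Egln2 in the chondrocyte interaction. The osteoblast interaction called 3 members in place of 5 with all 28 libraries in 1 fit. The cause was not tested.

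Leaving out 1 library at a time gave 3 to 5 members called in chondrocyte cultures at low oxygen (5 without hypoxic replicate 1) and 4 to 8 in the osteoblast interaction (8 without normoxic osteoblast replicate 4). Directions turned within these ranges: -0.073 to 0.041 for Egln2 in proliferating, -0.20 to 0.016 for Hif1a and -0.030 to 0.046 for Hif1an in chondrocyte, and -0.44 to 0.99 for Epas1 in smooth muscle cultures at low oxygen. The same held for Hif1a between chondrocyte and proliferating cultures at low oxygen, -0.026 to 0.062, and in the chondrocyte interaction for Arnt2, -0.13 to 0.11, and Egln2, -0.10 to 0.014.

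Same-numbered libraries did not deviate together: their correlations were -0.16 to 0.11 over 10 comparisons, and in 0 of these did every pair pass 0.1 or every library correlate best with its own number. With a replicate block, 10001, 2797, 9256 and 10683 genes were called at low oxygen in proliferating, chondrocyte, osteoblast and smooth muscle cultures. The block gave 0.020 for Hif1a in chondrocyte cultures, -0.20 for Vhl in smooth muscle cultures (adjusted p = 0.169), 1.72 for Epas1 and -0.32 for Egln2 in osteoblast cultures (adjusted p = 0.00347 and 0.00298), and -0.31 for the osteoblast interaction of Hif1an (adjusted p = 0.0649). Depth limits Epas1 and, outside the chondrocyte and osteoblast groups, Hif3a.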
